A study of Mus musculus with 6 samples.

Results

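Chemokines are small secreted proteins that guide moving cells, and chemokine receptors are the membrane proteins that read them. Their transcripts were taken from an array series in differentiating osteoblasts as the genes whose single annotated symbol names a CC, CXC, CX3C or XC chemokine, a CC or CXC receptor, or an atypical receptor. This gave 53 of the 22180 genes measured: 19 CC chemokines, 13 CXC chemokines, 2 genes of the CX3C and XC classes, 9 CC receptors, 6 CXC receptors and 4 atypical receptors. Another 7 symbols, of the Ccl19, Ccl21 and Ccl27b genes and their near-identical copies, stood only on probe sets with several symbols and were not analysed here.

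The series compared 3 samples of MC3T3-E1 cells treated with 1 µM NU7441 with 3 samples given its solvent, DMSO. MC3T3-E1 is a pre-osteoblast line from mouse calvaria, and NU7441 inhibits the catalytic subunit of the DNA-dependent protein kinase. All 6 samples were grown to confluence and kept for 14 days in medium that drives osteoblast differentiation, containing 10 mM β-glycerophosphate and ascorbic acid at 50 µg/ml, and total RNA of whole cells was put on Affymetrix arrays. The series is about the phosphorylation of the coregulator alphaNAC by this kinase, and the comparison asks which transcripts differ when the kinase is blocked. Nothing in the labels tells if the replicates of a group were cultured apart. The p-values therefore cover the spread among these arrays, possibly a technical one, and precision is limited by their number.

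Chemokine classes are named for the spacing of their first cysteines. CC chemokines draw mainly monocytes and lymphocytes, a group of CXC chemokines around Cxcl1 draws neutrophils through Cxcr2, and Cxcl12 holds blood stem cells in bone marrow through Cxcr4. Conventional receptors signal through inhibitory G proteins, whereas atypical receptors mostly bind and remove chemokines. Osteoblasts are known to secrete Ccl2 and Cxcl12, and monocytes drawn by such signals are a source of osteoclasts, the cells that resorb bone.

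The median log2 signal of the 6 arrays was 6.38 to 6.42. DMSO 2 and NU7441 3 lay at the opposite ends of the first principal component, with scores of 22.6 and -19.8, and differences that move by over 1.5 times or change sides of an unadjusted p of 0.05 without both, among the 17 members given with values by rule, are given both ways here or in the closing section. Same-numbered arrays of the 2 groups deviated together weakly, most for number 3, and no label names them as pairs. Same-numbered differences are given too. Of 8 osteoblast markers 7, among them Alpl, Sp7 and Col1a1, were above the array median on every array, and the eighth, Bglap, was above it on all but DMSO 1. The list averaged 10.70, 10.80 and 11.34 in NU7441 1 to 3 and 10.24, 10.32 and 11.07 in DMSO 1 to 3, so number 3 was the highest in both groups. All 8 osteoblast markers were higher with NU7441, with a median difference of 0.52, where 51.3% of all genes were higher. Of these 1, Alpl, had an unadjusted p under 0.05 in limma, where 3.49% of all genes were higher at that cutoff. With the replicate block 5 had one, against 4.71% of all genes, and 0 passed after adjustment in either fit. The part of this shift of the osteoblast markers in the chemokine differences was not tested. Of 15 measured leukocyte markers 12 were below the array median on every array, among them Ptprc, the pan-leukocyte marker, at 4.58, 4.51 and 4.69 in NU7441 and 4.49, 4.53 and 4.74 in DMSO. The leukocyte list averaged 5.82 to 5.85 in NU7441 and 5.77 to 5.84 in DMSO, and the 6 endothelial markers 5.56 to 5.77 and 5.67 to 5.75. How far signals stood over background was not analysed, which leaves the size of a difference in a dim gene uncertain. Of the 53 chemokine and receptor genes 31 were below the median on every array, against 8972 of all 22180 genes.

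With NU7441 the CC chemokines Ccl2, Ccl7, Ccl8 and Ccl9 had lower array signal and Ccl5 had higher signal, while most receptors differed little. None of these differences passed the test over all genes. In RNA of whole cultures, fewer cells making a transcript and less of it per cell cannot be told apart. Limma called 0 of the 53 at an adjusted p under 0.05, where it called 0% of all 22180 genes. At an unadjusted p under 0.05 there were 2 lower members, against a background of 3.30%, and 4 higher ones, against 3.49%. Over all genes these shares stood for 731 lower and 775 higher genes, whereas after median centring there were 908 lower and 560 higher. With same-numbered arrays as a replicate block, 6 members were lower at an unadjusted p under 0.05 in limma, against a background of 4.66%, and 4 were higher, against 4.71%, and again 0 passed after adjustment, as 0% of all genes did.

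The 3 values of one group lay wholly below those of the other in 4 members lower with NU7441, against 6.64% of all genes, and wholly above in 6 members, against 6.13%. Of the 53, 34 had a positive log2 difference (NU7441 minus DMSO), against 51.3% of all genes, and 19 a negative one, against 48.7%. All 3 same-numbered differences were negative in 9 members, against 16.6% of all genes, and positive in 8, against 16.0%, so one sign in all 3 numbers was about as common as in the background. Their median was 0.03, against 0.0036 over all genes. The size of the differences was uneven. A difference of at least 0.5 in either direction was found in 4 members, all of them CC chemokines, and in 0.672% of all genes. Without both DMSO 2 and NU7441 3, Ccl2, Ccl7 and Ccl8 were at -0.38, -0.17 and -0.40, under that size, and Ccl5 was at 0.75. The 95% interval of the difference excluded a 2-fold change in signal for 50 of the 53, the exceptions being Ccl5, Ccl7 and Ccl8.

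**Figure D1:**
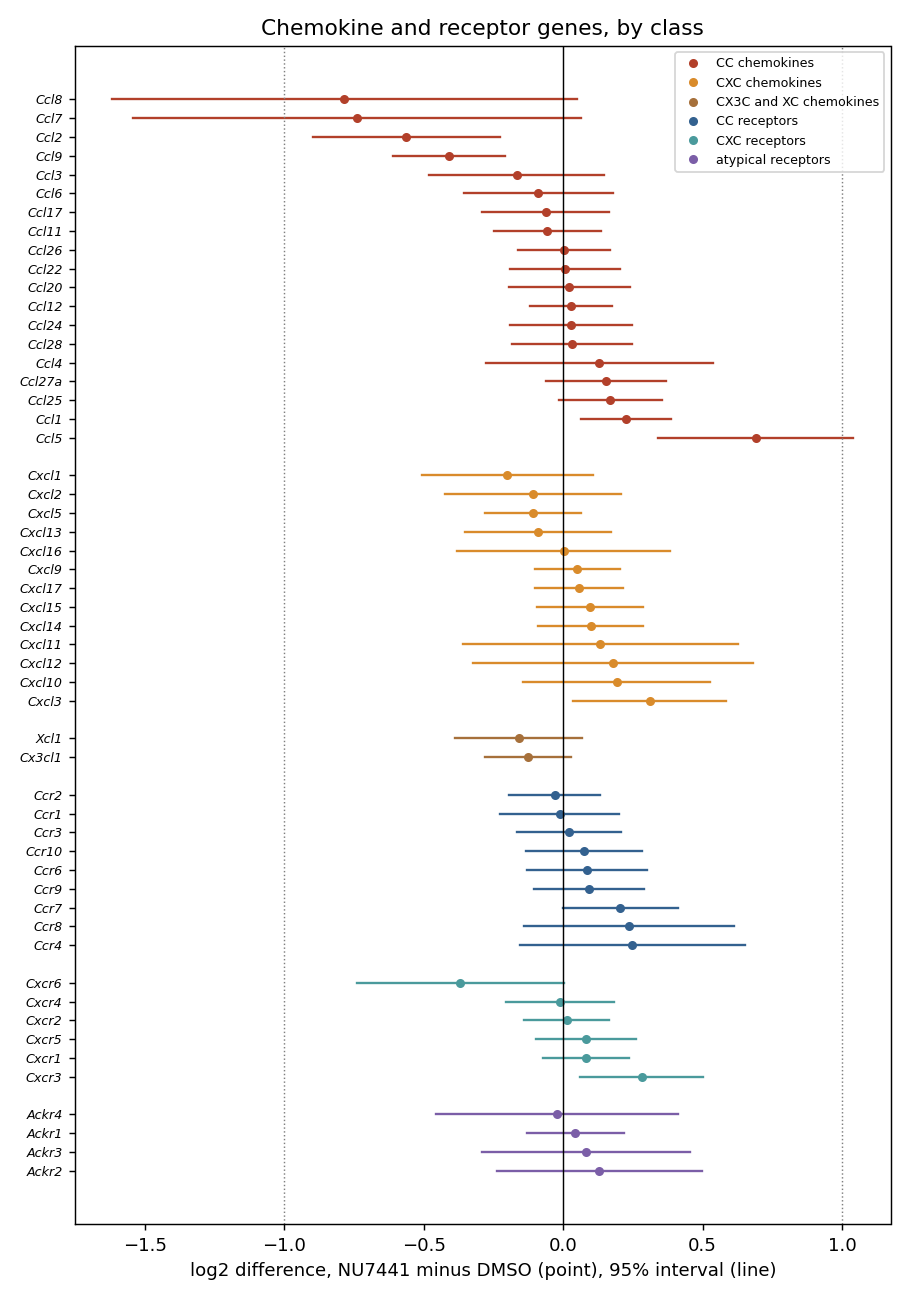
Log2 difference in array signal, NU7441 minus DMSO, of the 53 chemokine and receptor genes by class (points) with the 95% interval from limma (lines, 3 arrays a group); dotted lines mark a 2-fold change. Ccl8, Ccl7, Ccl2 and Ccl9 lie lowest and Ccl5 highest, and the receptors lie between -0.37 and 0.28.

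Ccl2, the main attractant of monocytes that carry Ccr2, was at 8.93, 9.03 and 8.91 in NU7441 1 to 3, against 9.49, 9.83 and 9.25 in DMSO 1 to 3. Every NU7441 array was below every DMSO array, and the DMSO arrays spread more widely, with an SD of 0.07 in NU7441 and 0.29 in DMSO. The difference was -0.56 (SE 0.14), or 1.48-fold lower signal, with an interval of -0.90 to -0.23. Its unadjusted p in limma was 0.00527 and its adjusted p 0.643. With the replicate block, an intensity trend and a robust prior Ccl2 was the 1 member called, at an adjusted p of 0.0434 in limma. That setting called 100 of all 22180 genes and was chosen with earlier results known. The adjusted p of Ccl2 lay between 0.0434 and 0.928 over all the alternatives. The difference was -0.41 without DMSO 2 and -0.38 without both DMSO 2 and NU7441 3.

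**Figure D2:**
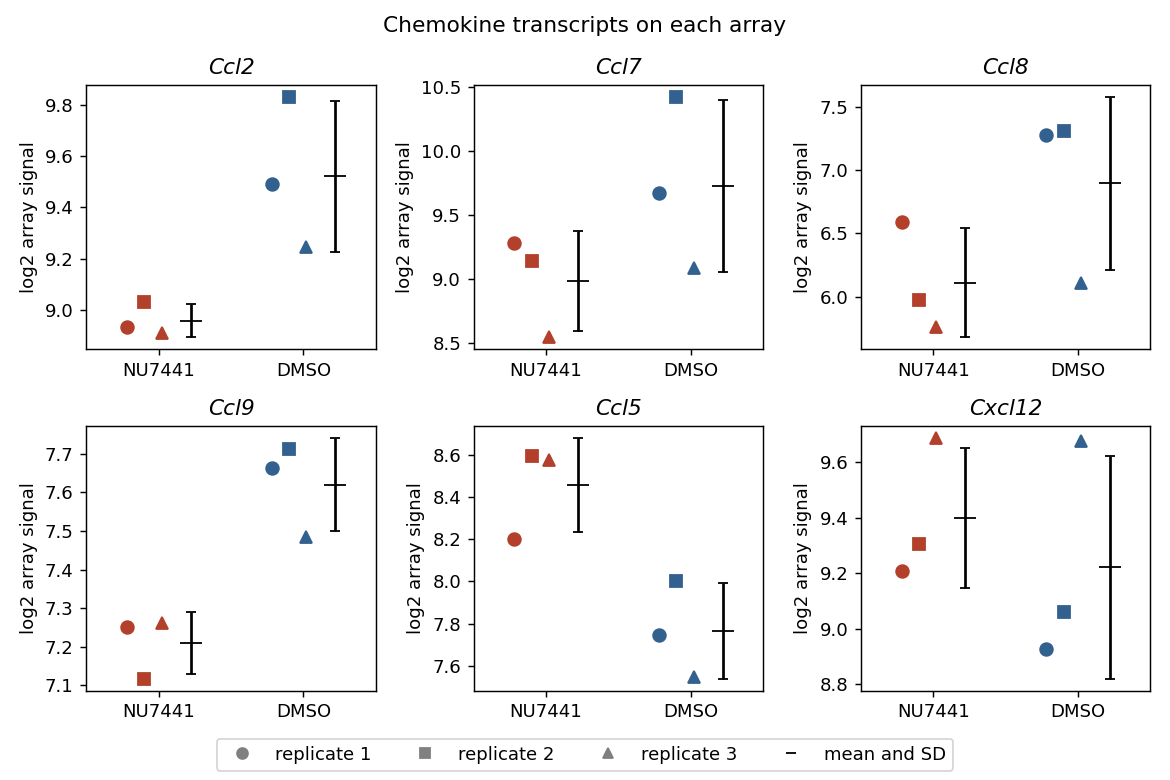
Log2 array signal of 6 chemokine transcripts on each array, NU7441 left of DMSO, with the replicate number as the symbol and the mean and SD of 3 arrays beside the points; each panel has its own axis. The groups do not overlap for Ccl2, Ccl9 and Ccl5, and they overlap for Ccl7, Ccl8 and Cxcl12.

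Ccl7, which attracts monocytes through several receptors, was at 9.28, 9.14 and 8.54 in NU7441, against 9.67, 10.42 and 9.09 in DMSO. The groups overlapped, because DMSO 3 lay below NU7441 1 and 2, and the same-numbered differences were -0.39, -1.28 and -0.54. The mean difference was -0.74 (SE 0.34, and 0.18 with the replicate block), with an unadjusted p in limma of 0.0658, and 0.0107 with the block. It ran from -1.06 without DMSO 3 (unadjusted p = 0.0104 in limma) to -0.39 without DMSO 2, and was -0.17 without both DMSO 2 and NU7441 3.

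Ccl8, whose mouse protein acts on Ccr8, was at 6.59, 5.98 and 5.76 in NU7441, against 7.27, 7.303 and 6.11 in DMSO. Its signal was above the array median on only 3 of the 6 arrays, which leaves the size of its difference uncertain. Again DMSO 3 overlapped the NU7441 arrays while the same-numbered differences were -0.68, -1.33 and -0.35. The mean difference was -0.78 (SE 0.35, and 0.19 with the block), with unadjusted p-values in limma of 0.0614 and, with the block, 0.00997. It ran from -1.18 without DMSO 3 to -0.58 without DMSO 2, and was -0.40 without both DMSO 2 and NU7441 3. The leukocyte markers as a list did not share this order over the arrays. Of the 15, 2 were lowest in number 3 of both groups, Cd68 and Cd14, and 4 were highest in it, among them Ptprc and Adgre1. Cd68 and Cd14 were above the array median on every array and differed by -0.23 (SE 0.19) and -0.22 (SE 0.16). With the block their SEs were 0.08 and 0.10, and their unadjusted p-values in limma 0.0412 and 0.0709. Their same-numbered differences were -0.21, -0.40 and -0.08 for Cd68, and -0.15, -0.45 and -0.06 for Cd14. Lyz2, also above the median, differed by -0.06 (SE 0.09), whereas Ptprc and Adgre1 were below it on every array. Of the 15 markers 8 were higher and 7 lower. The part of such cells in the chemokine differences was not tested.

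**Figure D3:**
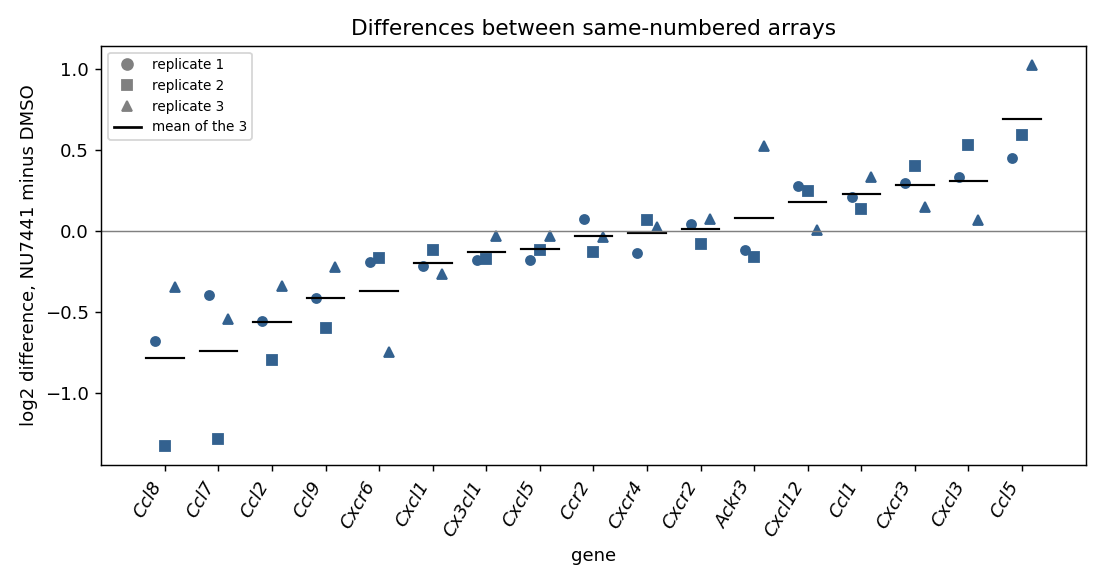
Log2 difference between same-numbered arrays, NU7441 minus DMSO, for the 17 members given with values on every array (symbols, replicate number) and the mean of the 3 (bars). Ccl8, Ccl7, Ccl2 and Ccl9 lie below 0 in all 3 numbers and Ccl5 above 0 in all 3, as 9 and 8 of the 53 members do, against 16.6% and 16.0% of all genes.

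These genes are neighbours on mouse chromosome 11, where Ccl2, Ccl7, Ccl11, Ccl12, Ccl8 and Ccl1 follow one another. The neighbours did not share one direction. Ccl11, or eotaxin, an attractant of eosinophils, was at 5.91, 5.93 and 5.91 in NU7441 and 6.12, 5.96 and 5.85 in DMSO, a difference of -0.06 (SE 0.08). Ccl12, a mouse ligand of Ccr2, was at 4.15, 4.24 and 4.26 in NU7441 and 4.19, 4.20 and 4.19 in DMSO, a difference of 0.03 (SE 0.06). Ccl1, a ligand of Ccr8 at the end of the run, was at 5.65, 5.56 and 5.72 in NU7441 and 5.44, 5.42 and 5.39 in DMSO, with no overlap. Its difference was 0.23 (SE 0.07), with an unadjusted p of 0.0125 in limma, and 0.19 without both DMSO 2 and NU7441 3, with an unadjusted p of 0.0675. Ccl12 was below the lower quartile on every array, and Ccl11 and Ccl1 were below the median. Their differences are therefore uncertain in size and do not show that these neighbours responded differently. The promoters of the neighbours Ccl8 and Ccl12 are shown because the first gene had lower mean signal and the second, a dim gene, did not. They are the 250 bases before the RefSeq start, build GRCm38.p6, 5′ to 3′ on the gene's strand.
Ccl8, chr11:82114935-82115184, plus strand: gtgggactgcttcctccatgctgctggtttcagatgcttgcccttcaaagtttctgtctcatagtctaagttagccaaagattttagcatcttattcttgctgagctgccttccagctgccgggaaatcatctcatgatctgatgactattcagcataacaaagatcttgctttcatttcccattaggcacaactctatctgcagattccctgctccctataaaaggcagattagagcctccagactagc
Ccl12, chr11:82101595-82101844, plus strand: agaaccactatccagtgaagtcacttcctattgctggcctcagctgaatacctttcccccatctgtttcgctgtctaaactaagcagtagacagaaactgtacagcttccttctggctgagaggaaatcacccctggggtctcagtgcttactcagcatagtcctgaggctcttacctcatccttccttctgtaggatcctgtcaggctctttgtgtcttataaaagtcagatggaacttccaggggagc
Neither window held the NF-kB consensus (kappa B) or the AP-1 motif TGANTCA on either strand, which would have been in capitals.

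**Figure D4:**
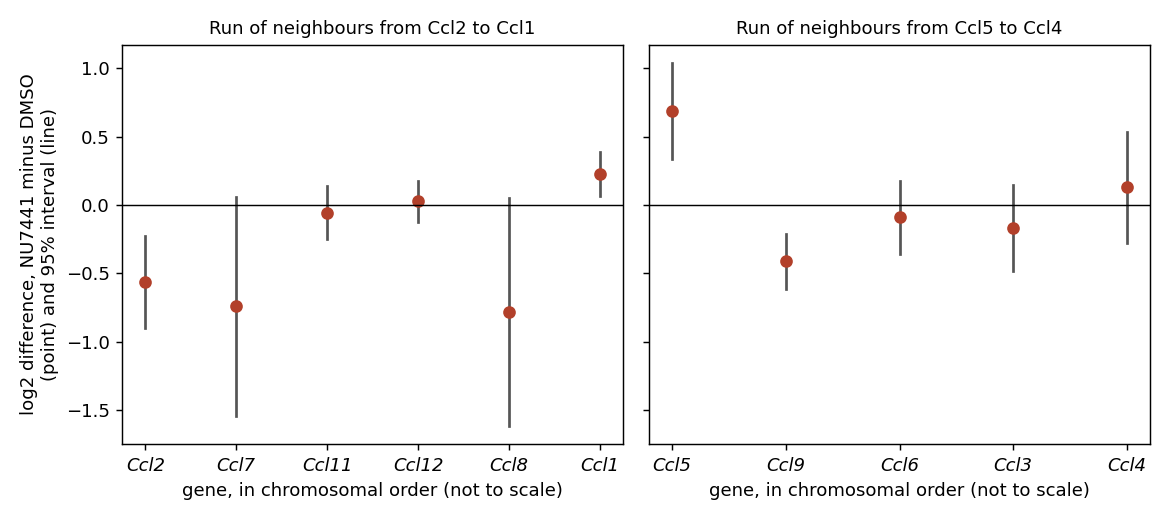
Log2 difference, NU7441 minus DMSO (points), and 95% interval (lines) of the chemokine genes in each of the 2 runs of neighbours on chromosome 11, in chromosomal order and not to scale. In the left run Ccl2, Ccl7 and Ccl8 lie low and Ccl11 and Ccl12 near 0, and in the right run the neighbours Ccl5 and Ccl9 lie on opposite sides of 0.

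A second run on chromosome 11 holds Ccl5, Ccl9, Ccl6, Ccl3 and Ccl4, and its first neighbours differed in opposite directions. Ccl5, or RANTES, an attractant of T cells and monocytes that is also induced by interferon, was at 8.20, 8.59 and 8.57 in NU7441, against 7.75, 8.00 and 7.55 in DMSO. Every NU7441 array lay above every DMSO array. The difference was 0.69 (SE 0.15), or 1.61-fold higher signal, with an interval of 0.34 to 1.04. Its p in limma was 0.00224 unadjusted and 0.606 adjusted, with adjusted values of 0.0520 to 0.912 over the alternatives. It lay between 0.58 and 0.82 when any 1 array was left out.

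Ccl9, a mouse ligand of Ccr1 known as a chemokine of osteoclasts, was at 7.25, 7.12 and 7.26 in NU7441, against 7.66, 7.71 and 7.48 in DMSO, with no overlap. The difference was -0.41 (SE 0.09), and its unadjusted p in limma, 0.00183, was the smallest of the 53 genes, with an adjusted p of 0.598. It was between -0.48 and -0.36 when any 1 array was left out and -0.39 without both DMSO 2 and NU7441 3. The remaining neighbours Ccl6, Ccl3 and Ccl4 differed by -0.09 (SE 0.11), -0.17 (SE 0.13) and 0.13 (SE 0.17). In Ccl2, Ccl5, Ccl7, Ccl8 and Ccl9 alike DMSO 2 was the highest and DMSO 3 the lowest of the DMSO arrays, an order found in 11 members and in 17.1% of all genes. The promoters of Ccl9, Cxcl10 and Ccr3 held both motifs searched, and these genes differed by -0.41, 0.19 and 0.02 (SE 0.09, 0.14 and 0.08). That of Ccl9 is shown, with TGANTCA from 53 to 47 and the NF-kB consensus from 35 to 26 bases before the start in capitals.
Ccl9, chr11:83578637-83578886, minus strand: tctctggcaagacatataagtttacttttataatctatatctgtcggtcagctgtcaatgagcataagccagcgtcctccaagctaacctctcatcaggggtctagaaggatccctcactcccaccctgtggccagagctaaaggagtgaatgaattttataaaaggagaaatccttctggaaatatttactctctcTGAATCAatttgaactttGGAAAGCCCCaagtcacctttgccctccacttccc
Of the 43 promoter sequences found for 39 of the members, 11 held the NF-kB consensus and 5 held TGANTCA, against 7.25% and 6.75% of all 32851 sequences of this length in the RefSeq table. The table gave no sequence for Ccl2, Ccl5 or Ccl7.

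The other CC chemokines had smaller differences. Ccl25, a ligand of Ccr9, was at 7.31, 7.38 and 7.49 in NU7441 and 7.25, 7.29 and 7.14 in DMSO, wholly above it, with a difference of 0.17 (SE 0.08). Ccl27a, a ligand of Ccr10, had 2 probe sets, which differed by 0.15 and 0.29, with overlapping groups on both. Ccl17 and Ccl22, both ligands of Ccr4, differed by -0.06 (SE 0.10) and 0.01 (SE 0.08), and Ccl20, the ligand of Ccr6, by 0.02 (SE 0.09). Ccl24, Ccl26 and Ccl28 lay between 0.00 and 0.03.

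Among the neutrophil-attracting CXC chemokines, Cxcl1 was lower in each same-numbered comparison and Cxcl3 higher. Cxcl1 was at 6.40, 6.77 and 6.69 in NU7441, against 6.61, 6.89 and 6.96 in DMSO, and the groups overlapped. Its difference was -0.20 (SE 0.13, and 0.06 with the replicate block), with unadjusted p-values in limma of 0.167 and, with the block, 0.0274. It ran from -0.30 without DMSO 1 to -0.09 without NU7441 1. Cxcl3 was at 3.46, 3.68 and 3.21 in NU7441 and 3.12, 3.15 and 3.14 in DMSO, below the lower quartile of 5.11 to 5.16 on every array. Its difference of 0.31 (SE 0.12) had an unadjusted p of 0.0319 in limma and rested on this dim signal. It was 0.20 without NU7441 2, with an unadjusted p of 0.0898. Cxcl5 was at 5.75, 5.66 and 5.79 in NU7441 and 5.93, 5.77 and 5.82 in DMSO, a difference of -0.11 (SE 0.07) that was -0.06 without DMSO 1 and -0.17 without both DMSO 2 and NU7441 3, and Cxcl2 differed by -0.11 (SE 0.13). Cxcl1 is a textbook target of NF-kB, and its promoter shows overlapping matches to the NF-kB consensus, in capitals, from 71 to 61 bases before the start. The promoters of Cxcl2 and of Cxcl3, which was higher, held matches of the same letters.
Cxcl1, chr5:90890995-90891244, plus strand: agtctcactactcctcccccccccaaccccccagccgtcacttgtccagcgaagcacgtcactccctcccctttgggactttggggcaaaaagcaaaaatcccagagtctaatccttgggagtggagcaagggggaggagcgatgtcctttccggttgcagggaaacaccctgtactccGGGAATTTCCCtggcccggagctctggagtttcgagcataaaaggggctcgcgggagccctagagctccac

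Cxcl12, the ligand of Cxcr4 and of the scavenging receptor Ackr3, differed more between replicate numbers than between groups. It was at 9.21, 9.31 and 9.69 in NU7441 and 8.93, 9.06 and 9.68 in DMSO, number 3 being highest in both, as for the osteoblast markers. The difference was 0.18 (SE 0.21, and 0.08 with the replicate block) and became -0.05 without both DMSO 2 and NU7441 3. With 1 array left out it ran from 0.03 without DMSO 1 to 0.41 without DMSO 3, the last with an unadjusted p of 0.0367 in limma. Cxcl9, Cxcl10 and Cxcl11, interferon-induced ligands of Cxcr3, differed by 0.05 (SE 0.06), 0.19 (SE 0.14) and 0.13 (SE 0.21). The interval of Cxcl10 ran from -0.14 to 0.53 and that of Cxcl11 from -0.36 to 0.63. Cxcl16, the ligand of Cxcr6, differed by 0.0015 (SE 0.16) and Cxcl14, Cxcl15 and Cxcl17 by 0.06 to 0.10. Cxcl13, the ligand of Cxcr5, differed by -0.09 (SE 0.11). Cx3cl1, or fractalkine, a membrane-bound chemokine, was at 9.50, 9.47 and 9.51 in NU7441, just below 9.68, 9.64 and 9.54 in DMSO. The groups did not overlap, and the difference was -0.13 (SE 0.07), with an interval of -0.28 to 0.03. Xcl1, a chemokine of T and natural killer cells, differed by -0.16 (SE 0.10).

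Of the 15 CC and CXC receptors, Cxcr3 and Cxcr6 differed the most, in opposite directions. Cxcr3, the receptor of interferon-induced chemokines, was at 6.62, 6.54 and 6.61 in NU7441, against 6.33, 6.13 and 6.46 in DMSO, with no overlap. The difference was 0.28 (SE 0.09), with an unadjusted p of 0.0190 in limma and an adjusted p of 0.698. It was 0.19 without both DMSO 2 and NU7441 3, with an unadjusted p of 0.0921. Cxcr6, below the array median on every array, was at 5.62, 5.48 and 5.53 in NU7441, against 5.81, 5.64 and 6.28 in DMSO, also with no overlap. Its difference was -0.37 (SE 0.16) and rested largely on DMSO 3, being -0.18 without that array, and it was -0.496 without both DMSO 2 and NU7441 3, with an unadjusted p of 0.0360. The unadjusted p in limma was 0.0512, and 0.0420 with the replicate block.

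Cxcr4, the signalling receptor of Cxcl12, was at 7.33, 7.28 and 7.299 in NU7441 and 7.47, 7.21 and 7.27 in DMSO, a difference of -0.01 (SE 0.08) with an interval of -0.21 to 0.18, and -0.06 without both DMSO 2 and NU7441 3. Ccr2, the receptor of Ccl2, was at 4.99, 4.96 and 4.95 in NU7441 and 4.91, 5.09 and 4.99 in DMSO, a difference of -0.03 (SE 0.07). Cxcr2, the receptor of the Cxcl1 group, was at 6.28, 6.19 and 6.32 in NU7441 and 6.24, 6.28 and 6.24 in DMSO, a difference of 0.01 (SE 0.06). In all of these the groups overlapped. Cxcr1 and Cxcr5 differed by 0.08 (SE 0.07) and 0.08 (SE 0.08). Of the 9 CC receptors 7 were higher and 2 lower, from -0.03 to 0.25, 8 of them were below the array median on every array, and none had an unadjusted p under 0.05. Among them Ccr7, a homing receptor of lymphocytes, was at 6.75, 6.83 and 6.55 in NU7441 and 6.48, 6.48 and 6.55 in DMSO, a difference of 0.21 (SE 0.09). The atypical receptor Ackr3 was at 7.80, 7.89 and 8.41 in NU7441 and 7.92, 8.05 and 7.88 in DMSO. NU7441 3 alone stood high, and the difference of 0.08 (SE 0.16) became -0.11 without it. Ackr1, Ackr2 and Ackr4 differed by 0.04 (SE 0.07), 0.13 (SE 0.16) and -0.02 (SE 0.18).

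Genes that act before chemokines, the cytokines and receptors that induce them, were lower in 14 of 24, against 48.7% of all genes, and higher in 10, with a median of -0.05. At an unadjusted p under 0.05 in limma there were 3 lower, against 3.30% of all genes, and 1 higher, against 3.49%, and 0 passed over all genes. Il33, a cytokine of barrier and stromal cells, was at 6.76, 6.71 and 6.37 in NU7441, against 7.57, 7.19 and 7.05 in DMSO, a difference of -0.66 (SE 0.16). Il6ra, the interleukin-6 receptor, differed by -0.38 (SE 0.09), Il6 by -0.41 (SE 0.16) and Il1b by 0.31 (SE 0.10), with Il6 and Il1b below the lower quartile on every array. Tnf and its receptor Tnfrsf1a differed by 0.08 (SE 0.07) and 0.01 (SE 0.06).

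**Figure D5:**
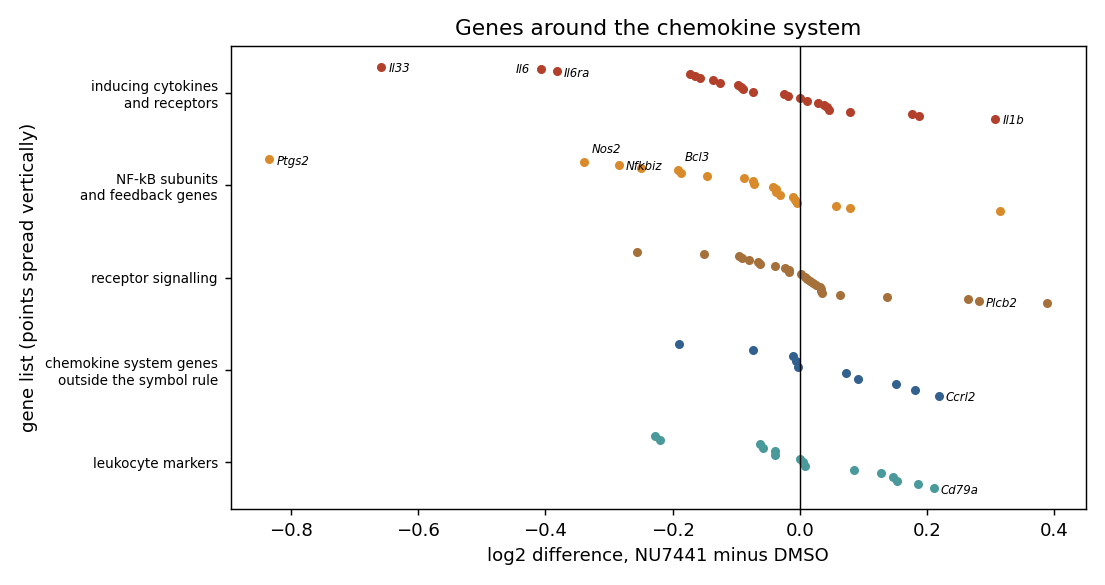
Log2 difference, NU7441 minus DMSO, of each measured gene in 5 lists around the chemokine system (points, spread vertically within a list); names mark genes with an unadjusted p under 0.05 in limma. In the NF-kB list 17 of 20 points lie below 0, and the leukocyte markers lie between -0.23 and 0.21.

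The NF-kB list held subunits and feedback genes, which switch on and restrain many chemokine promoters. It also held induced target genes, among them Ptgs2, Nos2, Icam1, Vcam1 and Sod2. These had negative differences, of which that of Icam1 was only -0.01 (SE 0.07). Of its 20 measured genes 17 were lower, against 48.7% of all genes, and 3 higher, with a median of -0.06. The 3 higher were Tnip1, Birc3 and Traf1. Tnip1 differed by 0.315 (SE 0.27, and 0.08 with the replicate block), Birc3 by 0.08 (SE 0.08) and Traf1 by 0.06 (SE 0.07). In limma 4 of the 20 had an unadjusted p under 0.05, all lower, against 3.30% of all genes, and 0 passed over all genes. Ptgs2, the inducible cyclooxygenase, was at 9.50, 10.29 and 9.14 in NU7441, against 10.17, 10.64 and 10.62 in DMSO, a difference of -0.83 (SE 0.29) with overlapping groups. Nos2, the inducible nitric oxide synthase, differed by -0.34 (SE 0.08), Nfkbiz by -0.28 (SE 0.11) and Bcl3 by -0.19 (SE 0.07), the last 2 encoding nuclear cofactors of NF-kB. The inhibitor Nfkbia and the subunit Rela differed by -0.07 (SE 0.08) and -0.07 (SE 0.09). The subunits Nfkb2, Rel and Relb differed by -0.04 (SE 0.06), -0.04 (SE 0.08) and -0.01 (SE 0.10). The list was chosen with earlier results of these arrays known, so its direction is not independent evidence.

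Genes of receptor signalling were nearly balanced, with 15 of 26 higher and 11 lower and a median of 0.0098. Plcb2, a phospholipase activated by G proteins in blood cells, was at 6.53, 6.49 and 6.51 in NU7441 and 6.17, 6.25 and 6.26 in DMSO, a difference of 0.28 (SE 0.06) and the 1 gene of the list with an unadjusted p under 0.05 in limma. The G protein subunit Gnai2 and the arrestin Arrb2 differed by 0.03 (SE 0.06) and -0.04 (SE 0.08). Of 10 measured genes of the chemokine system outside the symbol classes taken here, 5 were higher and 5 lower. Ccrl2, an atypical receptor, differed by 0.22 (SE 0.08, unadjusted p = 0.0310 in limma), Cx3cr1, the receptor of fractalkine, by 0.18 (SE 0.11), and Mif, a cytokine that also binds Cxcr4, by -0.19 (SE 0.14). None of the 3 passed over all genes.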

How the data were processed

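Total RNA of whole MC3T3-E1 cells was labelled with biotin and handled as the array maker specifies, per the labels' protocols. The authors deposited a table with a log2 value for each probe set on each array. The log2 scale was inferred from the range of the values. How the authors corrected background, summarised probes and normalized is not given in the sources used here. Groups and replicate numbers come from the labels.

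Of 41345 probe sets, 23521 had 1 symbol, 1814 several and 16010 none here. For the 1082 genes with several such probe sets the one with the highest mean was kept, which left 22180 genes, with no filter on level. Limma 3.58.1 under R 4.3.3 gave the differences (NU7441 minus DMSO), in a two-sided test on group alone, adjusted by Benjamini-Hochberg over all genes, and SEs and intervals come from that fit. The test was tried on simulated data first. Levels of different genes come from different probe sets and are not compared.

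Same-numbered arrays were checked for shared deviations from their group means. Over genes the correlations were 0.149, 0.169 and 0.339 for numbers 1, 2 and 3, and between -0.25 and 0.09 for different numbers. All 3 same-number values exceeded 0.1, and the numbers were used as a block in alternative fits only. That choice rests on the data and on no label, and the reported test used group alone.

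Members with values on every array were those with an unadjusted p under 0.05, with or without the replicate block, those with groups apart by at least 0.3, and fixed ligand-receptor pairs. Other genes are given as counts, neighbours or examples, and members outside that rule (Ccl11, Ccl12, Ccl25 and Ccr7) were given values after theirs were seen. The members, lists and settings were chosen with earlier results of these data known. Promoters came from the RefSeq table (GRCm38.p6), and gene order from the RefSeq gene table of that build. Matplotlib 3.10.9 under Python 3.11.15 drew the figures.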

Additional observations from a re-analysis of the deposited data

How the results depend on the processing

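Under 16 alternatives, the one without both DMSO 2 and NU7441 3 among them added after the data were examined, limma called 0 members and 0 genes, except that the replicate block with an intensity trend and a robust prior called 100 genes, of which 1 was a member, Ccl2. With leaving out 1 array the count of called genes and of called members stayed between 0 and 0. Members lower at an unadjusted p under 0.05, 2 in the reported test, were 6 with the replicate block and 7 with the block, trend and robust prior, and between 2 and 4 when 1 array was left out, 4 of them without DMSO 2 and 4 without DMSO 3. Higher members, 4 in the reported test, were 2 among the upper 50 percent of genes by level, where 12 of the 53 were tested, and between 2 and 4 when 1 array was left out, 2 of them without NU7441 1. Of the differences of the 17 genes given with values on every array, 250 of the alternative values kept direction and side of the threshold, 1 passed it and 10 turned sign, all of them in 5 genes with small differences. With both DMSO 2 and NU7441 3 left out the difference was -0.057 for Ackr3, 0.023 for Ccr2, -0.046 for Cxcl12 and -0.0031 for Cxcr2. Leaving out 1 array moved Ackr3 between -0.11 (without NU7441 3) and 0.20, Ccr2 between -0.071 and 0.015 (without DMSO 2), Cxcr2 between -0.014 (without NU7441 3) and 0.048, and Cxcr4 between -0.065 and 0.063 (without DMSO 1). Cxcr2 was also at -0.0048 with quantile normalization and -0.0050 with median centring. The cause was not tested. Signal over background limits what can be said of dim genes, among them most receptors.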
